A study of Mus musculus with 3 samples.

Results

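The regions described here were 3079 of the 29222 Pol2-S5p regions called in F123 cells (10.5%). They were chosen by measured values: a Pol2-S5p width of at most 3000 bp, an overlap of at least 1 bp with a Pol2-S7p region, no overlap with an H3K27me3 region, and a distance of over 10 kb from every transcript start in GENCODE on mm10. Of all Pol2-S5p regions, 17688 were narrow enough, 10902 of these touched Pol2-S7p, and 7208 of these were free of H3K27me3 before the distance was applied. At the edges of the rule, 44 members were exactly 3000 bp wide and 35 regions that met the other conditions were 3200 bp wide, while 134 members lay over 10 and up to 11 kb from a start and 139 regions over 9 and up to 10 kb. These values chose the members and are given as a description.

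F123 is a male mouse embryonic stem cell line, a hybrid of the S129/Jae and Cast strains (genotype F1). The cells were grown with leukemia inhibitory factor on inactivated embryonic fibroblasts and moved to gelatin without feeders before harvest. No treatment was compared. Chromatin immunoprecipitation sequencing (ChIP-seq) was done with antibodies to RNA polymerase II phosphorylated at serine 5 (Pol2-S5p, clone CTD4H8) or serine 7 (Pol2-S7p, clone 4E12) of its C-terminal domain and to the Polycomb mark H3K27me3, with 1 library per mark, so no value has replicates and no difference was tested. The lists held 29222 Pol2-S5p, 22320 Pol2-S7p and 17342 H3K27me3 regions without read counts, so the depth behind a region is unknown. Of 8 promoters of embryonic stem cell markers, 6 carried both polymerase marks without H3K27me3 and 2 carried all 3 marks, while none of 8 fibroblast marker promoters carried both polymerase marks alone and 1 carried all 3.

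Enhancers are stretches of DNA away from gene starts where transcription factors bind, and RNA polymerase II is often found on the active ones. Pol2-S5p is known from polymerase near the start of transcription and Pol2-S7p from polymerase that has entered productive transcription. Polymerase is also recruited by promoters that do not belong to genes. The best known of these in the mouse belong to LINE-1 retrotransposons, mobile elements that copy themselves through RNA: a full-length element opens with a tandem repeat that acts as its promoter, followed by a shorter and a longer open reading frame, and most copies are truncated and lack the promoter.

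Most members held sequence that recurred in other members. Words of 30 bases shared between members sorted 2075 of the 3079 (67.4%) into 6 families, and family 1 alone held 1813 (58.9%). A place in a family means shared words and not a whole copy of a repeat. The first 3 words below are shown because they define the families whose word most members hold, and the fourth because it holds the motif that most members carried. The first 3 words were held by 1433, 97 and 44 members. In the fourth the capitals mark the letters AAGATGGCG of the factor YY1, which here lie on the opposite strand. The stretches on chromosomes 12 and 13 lie between genes and that on chromosome 5 in a member placed in an intron. All are 30 bases, on mm10 (GRCm38, RefSeq sequence), at chr12:42745465-42745494 on the minus strand, chr5:70761505-70761534 on the plus strand, chr13:113718552-113718581 on the plus strand and chr12:42745726-42745755 on the minus strand.
family 1: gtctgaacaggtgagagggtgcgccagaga
family 2: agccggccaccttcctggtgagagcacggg
family 3: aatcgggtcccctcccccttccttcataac
family 1, YY1 letters: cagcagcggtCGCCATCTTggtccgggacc

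The label of possible enhancers was set beside the sequence and place of the members, and enhancer activity itself was not tested. Over 50% of the bases were repeat-masked in the reference in 2277 members (74.0%, exact 95% interval 72.4 to 75.5%), against 27.2% of the 1623053 tiles of 1 kb over 10 kb from every start, which serve as the background throughout. Intervals cover counting error only, and tiles are all 1 kb wide while members had a median width of 1000 bp (quartiles 800 and 1400 bp). The RefSeq annotation lists 1015 experimentally described enhancers, of which 447 lie over 10 kb from a start, and 3 members overlapped any of them. That was 0.0974% of members against 0.0891% of tiles, and 3 overlaps are too few to tell members from tiles. All 3 were among the 802 members with at most 50% masked bases (0.374% of these), called repeat-poor below. Of the 447 distal enhancers, 2 were touched by a member and 128 (28.6%) by any of the 29222 Pol2-S5p regions, of every width. The members are called distal narrow polymerase regions here, after their rule.

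**Figure D1:**
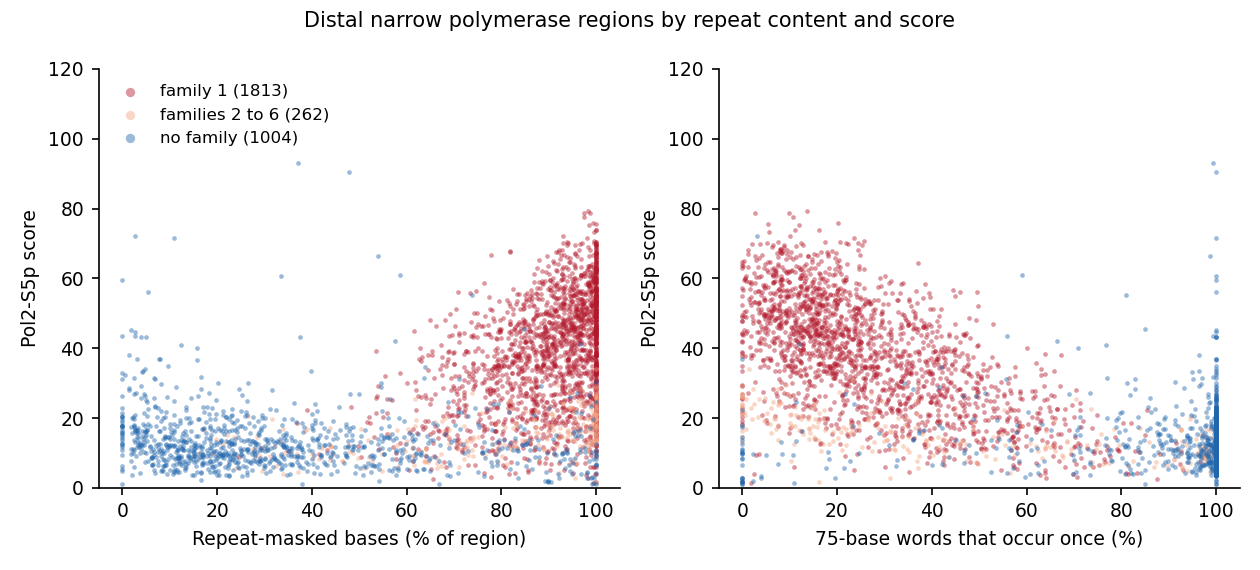
Each point is 1 of the 3079 members, placed by its Pol2-S5p score (vertical axis) against the percentage of its bases that are repeat-masked (left) or the percentage of its 75-base words that occur once in the reference (right), and coloured by family. Family 1 fills the repeat-rich, high-scoring corner on the left (median 93.0% masked and a median score of 38.9), and members in no family spread along the low scores (median 26.2% masked and a median score of 11.7).

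Family 1 members were rich in GC and in CpG. Their median GC content was 57.9% (quartiles 54.2 and 60.7%) and their median ratio of observed to expected CpG 0.516, against 40.5% and 0.149 in tiles. Repeat-poor members stood between them, with a GC content of 48.4% and a ratio of 0.237. The share of members in family 1 climbed with GC content, from 20.8% of the 720 members of 45 to 50% GC to 53.5% of 650 at 50 to 55%, 87.9% of 818 at 55 to 60% and 89.0% of 644 above that.

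The family 1 word occurred 5736 times in the reference, at 2239 loci when copies up to 3 kb apart on 1 strand were joined. Neighbouring copies were a fixed distance apart: 3197 of 3497 adjacent pairs (91.4%) were spaced by exactly 212 bp. In the sense of the word, an open reading frame of at least 1000 codons followed within 8 kb at 1638 loci (73.2%), against 14 loci (0.625%) on the other side and strand. The commonest long frame had 1281 codons (1460 loci) and began 1623 bp past the last copy (1387 loci). A shorter frame of 371 codons was found at 1783 loci (79.6%), with or without the long frame, and began 467 bp past the last copy at 1450 of them. This order of tandem repeat, shorter frame and longer frame is the layout of a full-length LINE-1 element. The reference used here names no repeat families, so the name rests on that layout.

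Regions of the marks were counted over all loci of the family, members or not. Of the 2239 loci, 2093 (93.5%) touched a Pol2-S5p region and 1978 (88.3%) a Pol2-S7p region, against 125 (5.58%) for H3K27me3. A member lay at 1434 loci (64.0%), and members were chosen for Pol2-S5p and Pol2-S7p and for the absence of H3K27me3, so all 3 shares are in large part fixed by the choice and are given as a description. The 659 other loci with Pol2-S5p were each counted once, by the first condition that their widest Pol2-S5p region failed. In the order used, 107 were over 3000 bp, 113 had no Pol2-S7p and 101 touched H3K27me3. The remaining 338 were within 10 kb of a transcript start. No Pol2-S5p region lay at 146 loci (6.52%). Coverage was fuller at loci with the long frame. Pol2-S5p touched 1624 of 1638 loci with the long frame (99.1%), against 469 of 601 without it (78.0%). For Pol2-S7p the counts were 1586 (96.8%) and 392 (65.2%). Reads of repeated sequence can fit several loci, so a touched locus need not itself have carried the mark, and this was not tested.

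Coverage also followed the number of repeat copies, again over loci that include the members. Among loci with 1 copy of the word, 80.4% of 693 touched Pol2-S5p (exact 95% interval 77.2 to 83.3%) and 66.1% Pol2-S7p (62.4 to 69.6%). Among the 623 loci with 2 copies, the shares were 98.4% and 96.1%. All of the 420 loci with 3 copies, the 251 with 4 and the 252 with 5 or more touched Pol2-S5p, and all but 2 of them, both with 3 copies, touched Pol2-S7p. H3K27me3 did not follow that order, with 9.67% of the loci with 1 copy, 5.62% of those with 2 and 1.67% of those with 3. It touched 4.38% of the loci with 4 copies and 1.98% of those with 5 or more, and most loci of the family hold a member chosen to be free of it.

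Within the members the scores of both polymerase marks climbed with the copy number. The median Pol2-S5p score was 19.7 in the 379 family 1 members without an exact copy, 27.4 in the 315 with 1 copy, 39.0 in the 451 with 2, 46.8 in the 326 with 3, 53.1 in the 186 with 4 and 57.5 in the 156 with 5 or more. The quartile ranges of the groups without a copy (12.9 to 29.3) and with 5 or more (51.1 to 63.7) did not overlap. The Pol2-S7p score of the overlapping region, from a separate library, had medians of 13.5, 17.6, 22.8, 27.9, 31 and 37.7 in the same order. Members with more copies were also wider, with a median of 800 bp without a copy and 1600 bp with 5 or more, and a wider region can hold more copies. Their share of 75-base words that occur once in the reference was lower, with a median of 42.6% without a copy and 12.1% with 5 or more. The part of width and of repeated words in the climb was not tested.

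**Figure D2:**
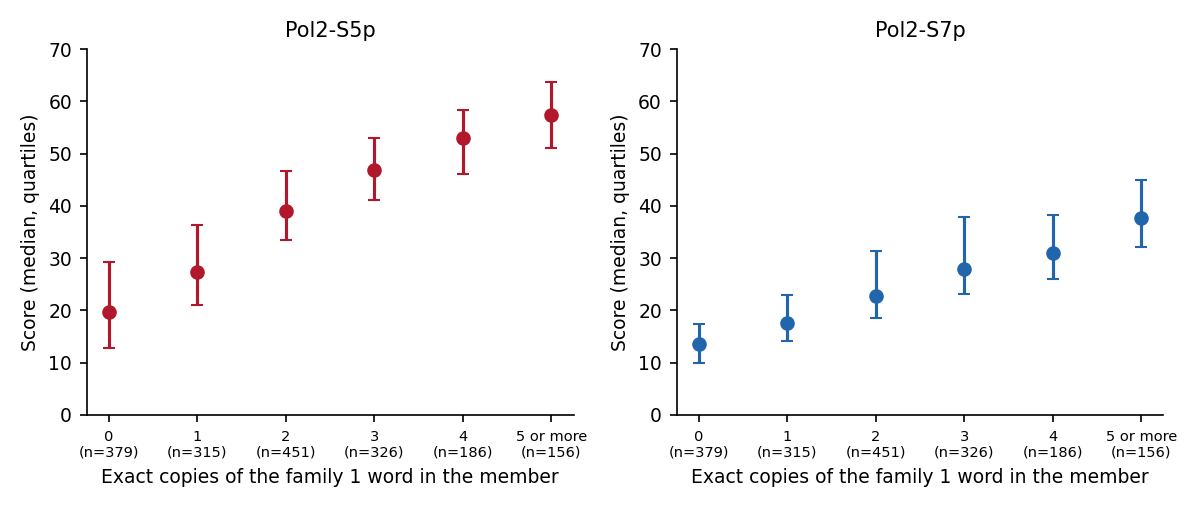
Points give the median score of Pol2-S5p (left) and of the overlapping Pol2-S7p region (right) in family 1 members, grouped by the number of exact copies of the 30-base word in the member, and bars reach the quartiles. Both medians climb over the 6 groups, to 57.5 and 37.7 at 5 or more copies.

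Repeated sequence also limits how well 75-base reads can be placed. In family 1 members a median of 22.6% of all 75-base words occurred once in the reference (quartiles 12.9 and 38.4%), and a word had a median of 192 copies. In repeat-poor members the median was 100%. Among all members the median score was 47.2 in the 407 with under 10% of such words and 11.7 in the 599 where every word occurred once. How reads that fit several places were treated beyond the default settings of the aligner is not given in the sources used here. The part of such reads in the scores, in the coverage of loci and in the coverage along the element given below was not tested.

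Pol2-S5p and Pol2-S7p were arranged in an order along the element. At 1796 family 1 loci over 10 kb from transcript starts, and with a window of 200 bp counted where a mark covered at least 50% of it, Pol2-S5p covered 93.8% in the window just past the last copy, 15.4% from 400 to 600 bp past it and 3.29% from 800 to 1000 bp. Pol2-S7p covered 88.8%, 68.3% and 65.8% of the same windows, and 34.7% from 1200 to 1400 bp. Upstream the marks ran together, with 54.9% and 52.6% from 600 to 400 bp before the end of the last copy and 14.4% and 12.6% from 1200 to 1000 bp before it. At most loci Pol2-S7p therefore ran into the first part of the shorter reading frame, where Pol2-S5p did not. It fell to 24.2% from 1400 to 1600 bp, near the end of that frame, and to 3.56% at 4000 to 4200 bp inside the longer one. H3K27me3 stayed at or under 5.18% in these windows, at loci most of which were chosen to be free of it. Members were also chosen for a Pol2-S5p region of at most 3000 bp, with no limit on the width of Pol2-S7p. The difference in reach can therefore be in part built in, and that part was not tested.

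**Figure D3:**
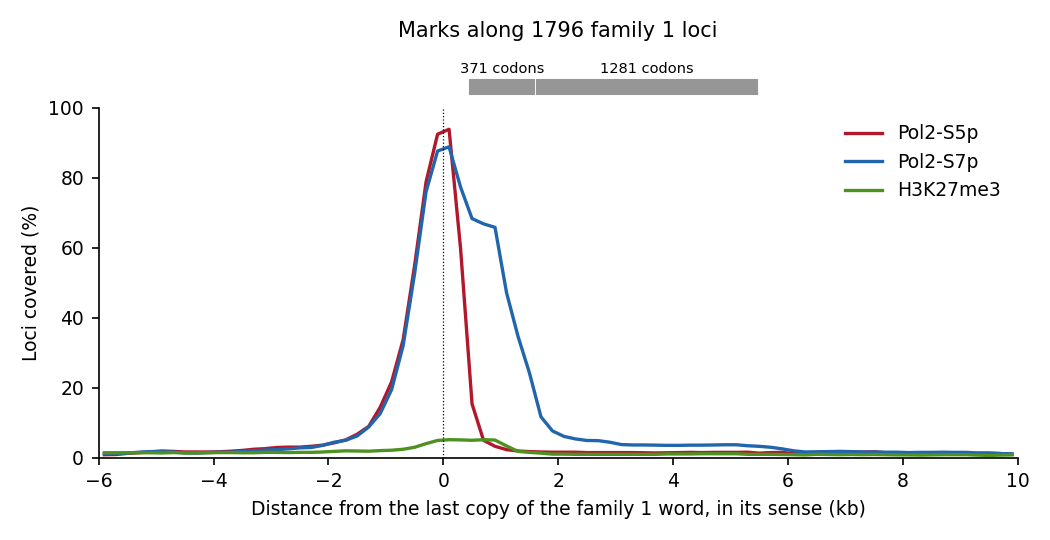
The lines give the percentage of 1796 family 1 loci covered by each mark in bins of 200 bp, against the distance in kb from the end of the last copy of the word in its sense direction (dotted line), and grey bars mark the commonest positions of the 2 reading frames. Pol2-S5p drops to 15.4% from 400 to 600 bp past the last copy, while Pol2-S7p stays at 68.3% there and at 65.8% up to 1000 bp.

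The order was also counted member by member, on largely the same loci and the same region lists, so this restates the profile. Of 1433 family 1 members with copies on 1 strand, 1422 overlapped a Pol2-S7p region of at most 10 kb. In 1094 of these (76.9%, exact 95% interval 74.7 to 79.1%) Pol2-S7p ran further past the downstream edge of the Pol2-S5p region than past the upstream edge, and in 91 (6.4%) the reverse held. The median overhang was 800 bp downstream (quartiles 0 and 1200 bp) and 0 bp upstream. Narrow Pol2-S5p regions of the same kind at annotated transcript starts, oriented by their transcripts, leaned less: 502 of 1647 (30.5%) reached further downstream and 569 (34.5%) further upstream. With Pol2-S7p regions of any width, 76.9% of 1433 members reached further downstream and 6.56% further upstream, and the start regions then leaned downstream too, with 39.4% of 2055 against 32.6% upstream. The overlap of the marks was fixed by the rule, and the side of the overhang was not. Reads of repeated sequence can fit several members, so members are not independent, and the interval does not cover that.

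Family 1 members lay mostly between genes, as repeat-rich tiles did. Of the 1813, 1271 (70.1%, 67.9 to 72.2%) were between genes, against 75.7% of the tiles over 50% masked and 60.7% of all tiles. Introns held 523 (28.8%, 26.8 to 31%), against 21.8% of the repeat-rich tiles and 32.9% of all tiles, so the direction depends on which tiles are taken. Of 425 in protein-coding genes, 81 (19.1%, 15.4 to 23.1%) lay in a gene with an Active promoter, meaning one with both polymerase marks and without H3K27me3 in a window of 2 kb on its start, against 24.2% of repeat-rich tiles in such genes. Host genes were long, with a median of 403 kb against 279 kb for tiles. The genes with most, which were picked after their values were seen, were Fhit with 5 members in 1612 kb and Adgrb3, Dlgap1, Il1rapl1 and Lrp1b with 4 each, the last over 2058 kb. Within genes of 1 strand, 225 loci of family 1 (42.0%) ran with the gene and 311 (58.0%) against it. An Active promoter lay within 100 kb of 9.16% of family 1 members (7.87 to 10.6%), against 12.7% of repeat-rich tiles and 16.4% of all tiles.

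Family 1 was also found in the other distal narrow regions. It made up 355 of the 920 with Pol2-S7p and H3K27me3 (38.6%) and 552 of the 2631 with neither (21%), and 78 of 2663 narrow regions at transcript starts (2.93%).

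The other families were smaller and weaker. Family 2, with 97 members, was the richest in GC (median 60.9%), and had a median Pol2-S5p score of 17.8. Its word occurred 1341 times at 560 loci, of which 400 (71.4%) touched Pol2-S5p and 204 (36.4%) Pol2-S7p. Family 3 had 48 members with a median score of 16.8 and a high CpG ratio of 0.615, and 159 of its 789 loci touched Pol2-S7p (20.2%). Families 4, 5 and 6 held 61, 34 and 22 members with median scores of 10.9, 12.3 and 10.8. The word of family 4 occurred 36557 times and its members kept a median of 97.4% unique 75-base words.

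The YY1 letters were found in most family 1 members and in few repeat-poor members, and both shares were above those of their tiles. YY1 is a zinc finger factor of many promoters. The letters AAGATGGCG were found on either strand in the central 1 kb of 1702 of 1813 family 1 members (93.9%, 92.7 to 94.9%). The share was 2.43% in repeat-rich tiles. Of 802 repeat-poor members 20 held them (2.49%, 1.53 to 3.83%), against 0.422% of repeat-poor tiles and 0.969% of all tiles. Families 2 to 6 held them in 126 of 262 members (48.1%). In the highest-scoring family 1 member, shown above, they recurred 5 times at steps of 212 bp, always on the strand opposite to the family word. A match is a run of letters in the reference and no measure of binding.

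Members as a whole did not carry the pluripotency motifs more often than the background. The octamer ATGCAAAT, bound by POU factors such as OCT4, was found on either strand in 138 members (4.48%, 3.78 to 5.27%) against 9.39% of tiles, and in 2.26% of family 1 and 6.11% of repeat-poor members (4.55 to 8%), against 7.81% of repeat-poor tiles. The composite of TTGT and ATGCAA 1 base apart, read by OCT4 with SOX2, was found in 6 members (0.195%, against 0.254% of tiles), and 5 of these were repeat-poor. It includes most of the octamer letters, so the counts are not separate. The octamer is rich in A and T, and members were rich in GC.

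Among repeat-poor members of similar GC content most motifs were near the background, and those above it differed between strata. For 387 repeat-poor members of 45 to 50% GC and 202401 repeat-poor tiles of the same content, the octamer stood at 5.68% (3.6 to 8.48%) and 5.06%. The letters GGGNGTGG of KLF factors, some of which are pluripotency factors, stood at 29.5% (25 to 34.3%) and 28.1%. NRF1, YY1 and the composite were above the background by more than the counting interval. NRF1 (GCATGCGC), a factor of housekeeping promoters, had 3.88% (2.19 to 6.31%) against 1.66%, YY1 had 2.33% (1.07 to 4.37%) against 0.74%, and the composite had 1.03% (0.282 to 2.63%) against 0.22%, which rests on 4 members. At 50 to 55% GC, with 227 members, NRF1 and YY1 were again above (5.29% against 2.02% and 3.52% against 0.766%), the KLF letters stood at 46.7% (40.1 to 53.4%) against 37.9%, and the composite was in 1 member. At 40 to 45% GC, with 119 members, NRF1 stood at 1.68% (0.204 to 5.94%) against 1.03%, YY1 at 0.84% (0.0213 to 4.59%) against 0.503%, and the composite was not found, which allows up to 3.05%. There the KLF letters were above the tiles (30.3%, 22.2 to 39.3%, against 19.5%) and ACATTCC of TEAD factors below them (6.72%, 2.95 to 12.8%, against 15%). GC content was measured over the region and motifs in its central 1 kb, on both strands, for 14 motifs in all.

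The other letters searched stayed within their counting intervals of the tiles at 45 to 50% GC. They were CATTGTT (SOX factors), TCAAGGTCA (ESRRB, a nuclear receptor of the pluripotent state), TTCCNGGAA (STAT factors, which carry the signal of leukemia inhibitory factor), AGGNGGCGC (CTCF, an insulator factor), TGANTCA (AP-1), ACCGGAAGT (ETS factors), ACATTCC (TEAD factors), CACGTG, which is the E-box of factors such as MYC, and, for the factors of the GATA family, AGATAAG. In all repeat-poor members, whatever their GC content, the ESRRB letters were found in 2.24%, against 2.16% of repeat-poor tiles. The STAT letters were found in 2.37%, against 2.75%. The CTCF letters had 2%, against 0.418%, the ETS letters 0.623%, against 0.165%, and the E-box 16%, against 8.85%. The TEAD letters had 13.1%, against 14.5%, and the GATA letters 10.2%, against 15.1%. The SOX letters had 13.7%, against 19.7%, and the AP-1 letters 26.4% (23.4 to 29.6%), against 29.9%. The KLF letters had 35.5%, against 17.7%, and the NRF1 letters 3.99%, against 0.941%. The KLF, NRF1, CTCF, ETS and E-box letters, and the YY1 letters given above, stood above these tiles. The median GC content was 48.4% in the members and 40.5% in the tiles. At matched GC content the NRF1, YY1 and KLF letters were above the tiles in some strata, as given above. The part of GC content was not tested.

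**Figure D4:**
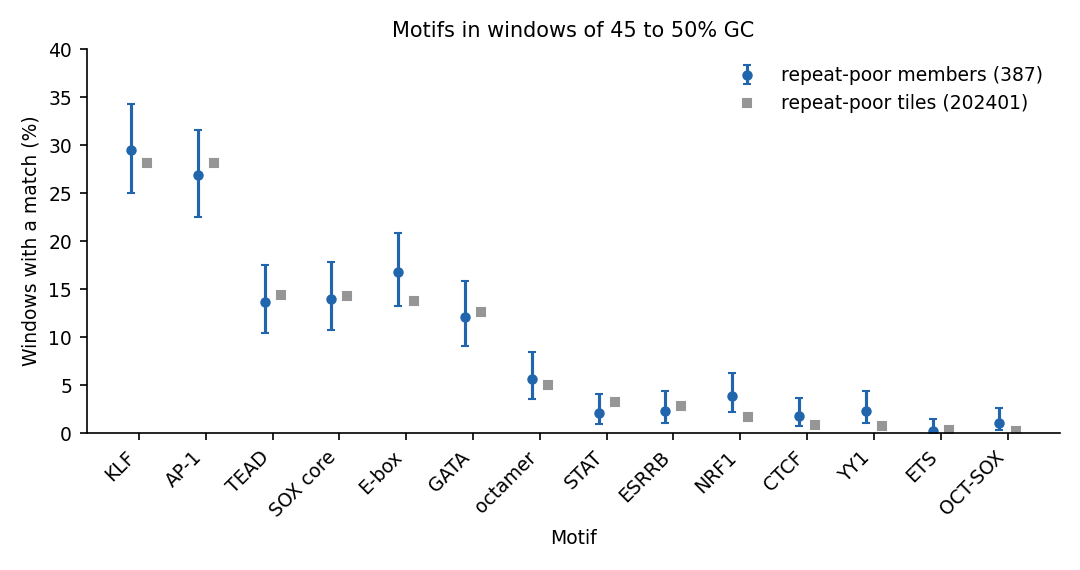
The share of windows with at least 1 match is given for 14 motifs, in 387 repeat-poor members (blue, with exact 95% intervals) and 202401 repeat-poor tiles (grey), all of 45 to 50% GC. Most intervals include the tile value, as for the octamer (5.68 and 5.06%), and NRF1 (3.88 and 1.66%), YY1 (2.33 and 0.74%) and the OCT-SOX composite (1.03 and 0.22%) lie above it.

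Repeat-poor members had an Active promoter nearby more often than the sets beside them. Of the 802, 435 (54.2%, 50.7 to 57.7%) had an Active promoter within 100 kb, against 36.5% (33.5 to 39.5%) of 1004 repeat-poor regions of the same width and distance with Pol2-S5p alone, 37.2% (32.1 to 42.4%) of 358 with Pol2-S7p and H3K27me3 and 17.8% of repeat-poor tiles. Over all members the share was 24.1%. The median distance to an Active promoter was 88.1 kb in repeat-poor members and 627 kb in family 1. Active promoters, members and the comparison regions were all defined by the same marks, and a long Pol2-S7p domain can reach both. These contrasts can therefore be in part built in, and are given as a description.

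Some of them lay on exons and past the ends of genes. Exons were touched by 95 (11.8%, 9.69 to 14.3%), against 12.3% (9.07 to 16.1%) of 358 repeat-poor distal narrow regions with Pol2-S7p and H3K27me3, 8.76% of those with Pol2-S5p alone and 5.90% of tiles. The 5 kb past a gene end held 75 (9.35%, 7.43 to 11.6%), against 4.47% (2.58 to 7.16%), 2.79% and 2.01% in the same order. Introns held 271 (33.8%), against 35.5%, 43.9% and 37.0%. Of 325 in protein-coding genes, 163 (50.2%, 44.6 to 55.7%) had a host with an Active promoter, against 27.6% of those with H3K27me3, 39.3% (35.0 to 43.8%) of those with Pol2-S5p alone and 24.3% of tiles. The states of hosts rest on the same marks as the sets, so this contrast too can be in part built in. The host with most members was Arid1b, a chromatin remodelling subunit gene, with 3, as did Dmd, the dystrophin gene, and both were picked after their values were seen. Repeat-poor members were wider than 1 kb tiles, with a median of 1200 bp, which adds to such touches.

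The Pol2-S7p partner of repeat-poor members was more often a long domain than that of family 1, though most were narrow. It was at most 3000 bp wide in 553 (69.0%, 65.6 to 72.1%) and over 10 kb wide in 144 (18%, 15.4 to 20.8%). In family 1 it was at most 3000 bp in 92.5% (91.2 to 93.7%) and over 10 kb in 1.32%. In repeat-poor distal narrow regions with H3K27me3 the shares were 88.8% and 5.03%. Narrow regions at transcript starts were close to repeat-poor members, with 68.3% and 22.2%. Over all members the narrow share was 83.3% (81.9 to 84.6%). Over all members, 233 (7.57%) overlapped a Pol2-S7p region over 10 kb wide.

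**Figure D5:**
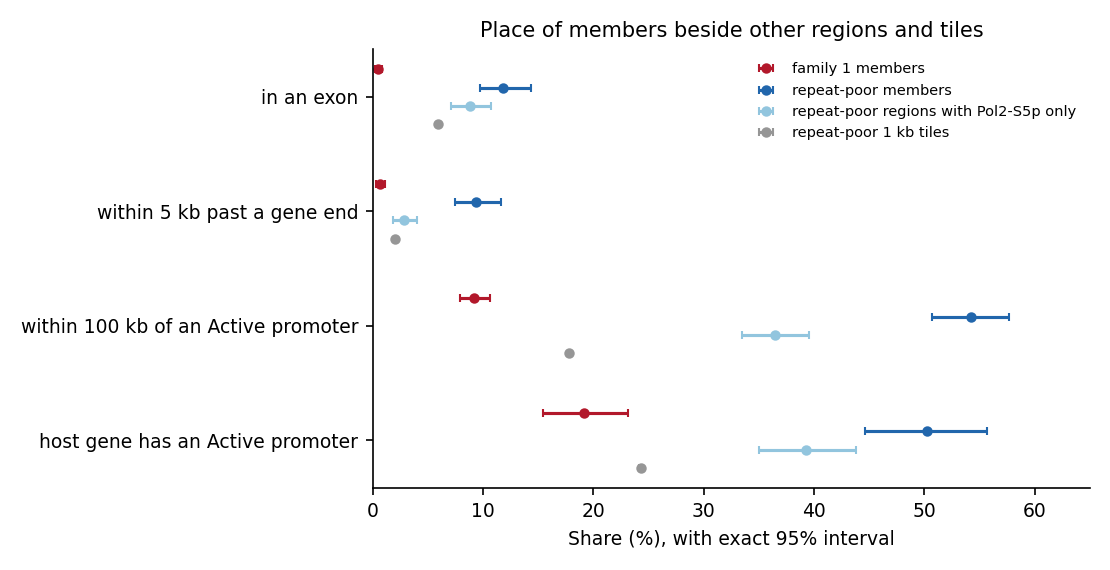
Points give the share of 4 sets with exact 95% intervals: family 1 members, repeat-poor members, repeat-poor regions of the same width and distance with Pol2-S5p alone, and repeat-poor tiles of 1 kb. In the lowest row the share is of those inside a protein-coding gene. Of the sets drawn, repeat-poor members lie furthest right in all 4 rows, with 54.2% within 100 kb of an Active promoter, and family 1 members lie left of the repeat-poor tiles, with 9.16%.

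Among the 12 members with the highest Pol2-S5p scores, 10 were of family 1 and the 2 highest were not. The highest score, 93.0, stood at chr11:54139600-54140799, between genes and 38.7 kb from P4ha2, which encodes a subunit of the collagen prolyl hydroxylase. Its Pol2-S7p region scored 118, the highest of any member. Of its 75-base words, 99.4% occurred once, its GC content was 45.1%, and none of the 14 motifs lay in its central 1 kb. The central 200 bases (chr11:54140100-54140299, plus strand) are shown since no shared word describes this member, with bases outside masked repeats in capitals.
highest score: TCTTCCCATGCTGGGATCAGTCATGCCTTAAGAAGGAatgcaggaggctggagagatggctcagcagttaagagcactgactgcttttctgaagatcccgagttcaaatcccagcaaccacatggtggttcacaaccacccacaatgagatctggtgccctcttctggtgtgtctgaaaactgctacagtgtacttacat

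The next score, 90.6 with a Pol2-S7p score of 99.2, lay in an intron of Kctd16, which encodes an auxiliary subunit of GABA receptors, with 47.8% masked bases and all 75-base words unique. Its gene carried Pol2-S5p with H3K27me3 and no Pol2-S7p at its promoter, so polymerase at this member stood 50.8 kb from a start of the Polycomb-repressed kind. The 10 family 1 members below them scored 73.4 to 79.2 for Pol2-S5p and 34.8 to 71.7 for Pol2-S7p, with 2 to 10 copies of the word and 62.5 to 64.5% GC. Their nearest genes included Lrrn3 (1259 kb), a neuronal membrane protein gene, Lrfn5 (1024 kb), a synaptic adhesion gene, Cdh9 (538 kb), a cadherin gene, B3gat1 (325 kb), which builds a neural carbohydrate, and Sox14 (198 kb), a factor of interneurons. March1, a ubiquitin ligase gene (91.9 kb), Prkcq, a kinase gene of T cells (49.5 kb), and Sult2a3, a sulfotransferase gene (34.4 kb), were nearer. The 2 with Active promoters were Gtsf1 (17.9 kb), which acts in the silencing of retrotransposons in germ cells, and Cmss1 (13.6 kb).

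Members were scattered. With neighbours joined at the distance commonly used to stitch enhancers, 2889 stood alone, 84 groups held 2, 6 held 3 and 1 held 4. The group of 4 spanned 10.2 kb inside Zfp931, a zinc finger gene with an Active promoter 10.2 kb away, with scores of 12.7 to 18.7 and none from family 1, and at least 1 of the 4 overlapped a Pol2-S7p domain of 46000 bp. A group of 3 in Zfp229, also a zinc finger gene with an Active promoter, spanned 6.4 kb and scored 5.91 to 19.1. The other groups of 3 named by the rule were in Sntg1, a syntrophin gene (16.8 kb, scores 7.34 to 12.4), in A830018L16Rik (8 kb, scores up to 52.4), near BC005561 (13.6 kb, 3 repeat-poor members, 7.76 to 41.0, 62.8 kb away) and near 4932411N23Rik on the X chromosome (13.8 kb, 5.77 to 51.2, 267 kb away).

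Of 40 genes of pluripotency, 3 (7.5%, 1.57 to 20.4%) had one within 100 kb of the start, against 12.7% of the 21938 protein-coding genes, which the interval includes. With the distance measured from protein-coding starts only, the share was 15%. For repeat-poor members the share was 2 of 40, against 6.57%. Among the other lists, signal feedback genes had 3 of 24, neuronal genes 4 of 24, secreted liver proteins 4 of 18, fibroblast genes 2 of 12, developmental transcription factors 3 of 30 and ribosomal proteins 2 of 30, and the intervals of all of these include 12.7%. For 20 blood and immune genes no member was found, where the interval reaches 16.8%. By promoter state, 9.46% of the 7877 Active promoters had a repeat-poor member within 100 kb, against 6.57% of all genes and 3.13% of the 5151 promoters with no mark (Inactive). Family 1 ran the other way, with 2.84% of Active and 9.67% of Inactive promoters, against 4.68% of all genes. Promoter states and members rest on the same marks, so these shares are a description.

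The pluripotency genes with a member within 100 kb included Foxd3 and Rif1. Foxd3, a forkhead factor needed to keep the pluripotent state, had all 3 marks at its promoter and 3 members downstream. The nearest, at chr4:99670200-99671399 and 13.9 kb away, was 1200 bp wide with a Pol2-S5p score of 12, overlapping a Pol2-S7p region of 8600 bp. This member touched an exon and was of family 4, with 43.9% masked bases and 96.7% unique 75-base words. The next, 74.9 kb away in an intron of Alg6, was a family 1 copy with a score of 41.8, 100% masked and without a unique 75-base word. The last, at chr4:99741000-99741599 and 84.7 kb away, touched an exon of Alg6, a glycosylation enzyme gene, scored 17.7 for Pol2-S5p and 21 for Pol2-S7p, and held no masked base. Rif1, a gene of telomeres and replication timing, had 1 member 71.8 kb away in an intron of Neb, with a score of 10.6, overlapping a Pol2-S7p domain of 35200 bp. Of the bases of this member, 83.5% were masked.

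Stretches of 2 of the Foxd3 members that hold motif letters are shown because they lie near a gene of this list, with the letters in capitals: GGGNGTGG of KLF factors and CATTGTT of SOX factors in the first and the KLF letters in the last, on either strand. KLF letters were found in 19% and SOX letters in 19.8% of all tiles, so a match is common. Lower case in these stretches does not mark masking. Whether the letters in the first lie in its masked bases is not shown. The positions are chr4:99670376-99670575 and chr4:99741000-99741145, plus strand.
near Foxd3, first: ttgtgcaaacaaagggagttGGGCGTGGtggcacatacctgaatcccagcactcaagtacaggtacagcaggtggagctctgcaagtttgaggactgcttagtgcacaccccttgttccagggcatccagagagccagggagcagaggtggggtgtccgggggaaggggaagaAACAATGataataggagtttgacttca
near Foxd3, last: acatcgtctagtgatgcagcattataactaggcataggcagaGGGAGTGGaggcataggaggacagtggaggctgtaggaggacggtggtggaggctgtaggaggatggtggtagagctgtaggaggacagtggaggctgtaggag

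The families and the repeat-poor members were spread differently over the chromosomes. Per Mb of sequence over 10 kb from starts, the X chromosome had 1.77 family 1 members, against 1.12 over all chromosomes, and 0.183 repeat-poor members, against 0.494. Chromosome 17 had the most repeat-poor members, 1.32 per Mb (68 members), and chromosome 11 few of family 1, 0.643 per Mb. The Y chromosome had 24 members in 57.9 Mb, of which 4 were of family 1. A male cell carries 1 X and 1 Y, so the read depth there differs from the autosomes, and its part in these densities was not tested.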

How the data were processed

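ChIP-seq regions in F123 cells, from 1 library per mark, were analysed. Per the labels and the methods, the authors aligned single-end reads of 75 bases to mm10 with variant positions masked, using default settings of Bowtie2 2.3.4.3, and regions were called with a Bayesian change-point peak finder. The deposited files give a position, a width in bp (an other kind of value, always a multiple of 200) and a score whose unit is not stated. Whether an input library was used is not given in the sources used here.

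Positions were compared with GENCODE release M21 and the soft-masked GRCm38 reference, whose lower case marks repeats without naming them. Overlap meant at least 1 bp. Regions were placed by exons, then introns, then 5 kb past a gene end. Of several starts of a gene, that with most Pol2-S5p cover was taken. Families were built from the 30-base word in most members, adding members with at least 30 words found in 3 or more of its holders, until fewer than 20 members shared a word. All 75-base words of members were counted in the reference on both strands. Named genes are the nearest protein-coding genes of the 12 highest scores, those at the 6 largest groups and pluripotency genes with a member within 100 kb. A gene that this rule names is not reported here. Members and lists were chosen with earlier results of these data known. Intervals are exact Clopper-Pearson at 95%. Alternatives changed the limits of the rule, the score, repeat content and windows. Python 3.11.15, NumPy 2.4.6, pandas 2.3.3, SciPy 1.17.1, numba 0.67.0 and Matplotlib 3.10.9 were used, and the functions were tested on simulated data.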

Additional observations from a re-analysis of the deposited data

How the results depend on the processing

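With no replicates, each share was set beside the counting interval of its reported value. No paired analysis was possible because each mark had 1 library. The number of members, 3079, was 1948 when both polymerase regions had to score over the medians of their lists and 802 without regions over 50% repeat-masked. With family 1 left out it was 1266, and with members under 50% unique 75-base words left out 1245, both chosen after seeing the data. It stayed within 1.5 times under the other 7 alternatives.

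The share in introns was 30.3%. It was 27.4% at over 20 kb from starts, 28.1% with protein-coding starts only, 33.8% without repeat-masked regions, 32.3% without family 1 and 32.0% without members of few unique words. The share with the octamer, 4.48%, was 1.85% in a window of 500 bp, 3.39% above the median scores, 6.11% without repeat-masked regions, 7.66% without family 1 and 6.51% without members of few unique words. The share within 100 kb of an Active promoter, 24.1%, was 54.2%, 45.5% and 45.9% under the last 3 of these. It was 14.9% at over 20 kb from starts, 30.1% at over 5 kb, 17.2% above the median scores, 26.7% with protein-coding starts only, 21.5% at a width of at most 2000 bp and 26% at 5000 bp. The share with a narrow Pol2-S7p region, 83.3%, was 69.0% without repeat-masked regions, 70.1% without family 1 and 72.4% without members of few unique words. It was 87.2% at over 20 kb, 80.3% at over 5 kb, 94.4% above the median scores, 81.7% with protein-coding starts only, 86.3% at 2000 bp and 79.3% at 5000 bp. The share of pluripotency genes stayed inside its interval under all 13 alternatives, at 2.5 to 15%. Apart from the sets left out by construction, the cause of these moves was not tested.

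Without read counts, the depth behind each region is unknown, and a locus without a region can still have carried the mark below the calling threshold. Regions were called against 1 library per mark, so no difference between sets was tested across samples. Copies in the reference are those of 1 strain; those of F123 were not measured.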
